A study of Mus musculus with 6 samples.

Results

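The bone and cartilage lineage genes described here are the RUNX transcription factor genes Runx1, Runx2 and Runx3, the osteoblast factor gene Sp7, the SOX genes Sox9, Sox5 and Sox6, and the matrix and mineral genes Alpl, Spp1 and Acan. They were taken by symbol from the table of gene counts, in which all 10 were present among 16982 genes. All 10 passed the filter on low counts that left 13386 genes for testing. The libraries came from mouse reprogrammable cells of C57BL/6 background on day 3 of reprogramming by retroviral OSKM (OCT4, SOX2, KLF4, C-MYC), 3 WT (wild type) and 3 Rnf20-/- (KO). Rnf20 encodes the E3 ligase that attaches ubiquitin to histone H2B, and the comparison asks which transcripts differ at an early time of reprogramming when this ligase is missing.

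According to the methods, the cells were mouse embryonic fibroblasts (MEF) from midgestation embryos, the KO cells were derived from Rnf20 Flox/Flox MEF with a ubiquitously expressed, tamoxifen-inducible Cre, and 4-OH tamoxifen was added to delete the gene. The sample labels call all 6 cultures untreated, and it is not stated whether the WT cultures carried Cre or received the drug. The protocol also plates infected cells on a feeder layer of MEF treated with mitomycin C, and whether feeder cells entered the RNA is not stated. Each title names a replicate, but nothing says that replicates came from separate embryos, so p-values measure the spread between these samples, which may be technical. In bulk RNA, fewer cells of a type and less RNA per cell cannot be told apart.

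RUNX proteins bind DNA together with their partner CBFB. RUNX2 directs mesenchymal precursors towards the osteoblast, SP7 (osterix) acts after it, and tissue-nonspecific alkaline phosphatase (Alpl) and osteopontin (Spp1) are products of the maturing osteoblast. SOX9 directs the chondrocyte, SOX5 and SOX6 act with it on cartilage genes, and Acan encodes aggrecan, the large proteoglycan of cartilage. Some of these genes also work elsewhere: RUNX1 in blood formation, RUNX3 in lymphocytes and sensory neurons, osteopontin in macrophages, and alkaline phosphatase in pluripotent cells, where its activity is used to stain colonies.

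Each library held 20545442 to 21746898 counts, and 3 counts, the floor used here, equalled 0.142 to 0.143 CPM, the count scaled to a common library size with edgeR's TMM factors. Rnf20 held 106 to 107 CPM in WT and 16.4 to 18.7 in KO libraries, a log2 fold change of -2.57 (SE 0.0812, adjusted p = 0.000163). Adjusted p-values are Benjamini-Hochberg values of the edgeR quasi-likelihood fit unless named otherwise. KO replicate 3 stood apart. A chi-square statistic of the counts, near 1 per gene for sampling noise alone, was 92.4 and 101 per gene between it and the other KO libraries, and 6.04 to 8.92 between any other libraries of the same genotype. The members are therefore described with and without that library. Fibroblast transcripts were abundant in all libraries, with the 11 fibroblast markers summing to 22050 to 40760 CPM.

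A run of bases that promoter windows of the RUNX genes share is shown first, because the family is read below as a group. RefSeq windows of 300 bases (250 before and 50 after a transcript start, GRCm38.p6) were matched by symbol for 8 of the 10 genes, with 17 windows in all and none for Sp7 and Sox9. The upstream windows of Runx1, Runx2 and Runx3 hold the same run of 18 bases, in capitals here, which contains the letters ACCACA in 2 places. ACCACA is the reverse complement of TGTGGT, the core that RUNX proteins bind.
Runx1, chr16:92826025-92826088, minus strand: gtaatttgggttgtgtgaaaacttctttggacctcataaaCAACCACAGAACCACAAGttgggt
Runx2, chr17:44814578-44814646, minus strand: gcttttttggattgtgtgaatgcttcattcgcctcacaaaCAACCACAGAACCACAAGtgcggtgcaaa
Runx3, chr4:135120469-135120546, plus strand: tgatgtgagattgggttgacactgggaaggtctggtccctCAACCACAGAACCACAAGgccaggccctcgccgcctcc
Of 32851 windows of all genes, 4 held this run on either strand (0.0122%). The other one belongs to Gm16225. The second windows of Runx1 and Runx3, at their internal starts, do not hold it, and the counts, which cover the whole gene, do not say which start was used.

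The window upstream of Spp1, the one member that rose, is printed whole because it also carries the RUNX letters, in capitals, from base -128 relative to the start.
Spp1, chr5:104434861-104435160, plus strand: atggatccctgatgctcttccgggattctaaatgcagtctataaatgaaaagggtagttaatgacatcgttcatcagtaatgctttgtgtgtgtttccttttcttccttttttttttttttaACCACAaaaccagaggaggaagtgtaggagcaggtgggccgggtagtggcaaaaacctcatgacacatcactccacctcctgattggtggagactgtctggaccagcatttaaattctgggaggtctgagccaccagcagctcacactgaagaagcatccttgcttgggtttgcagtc
TGTGGT or ACCACA stood in 6 of the 17 windows (35.3%) and in 16.8% of all windows. The 6 windows belong to 5 of the 8 genes, and the share over all genes was not computed. They include the windows of Runx1, Runx2 and Runx3 that hold the shared run. The windows of Alpl, Acan and Sox5 and the second window of Spp1 lack these letters. ACAATG or CATTGT, letters that SOX proteins bind, stood in 3 of the 17 windows, those of Sox5 and Sox6, and in 12.6% of all windows. A match of letters is a description of the sequence and not a measured binding site.

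Of the 10 genes, Spp1 rose in KO cells, 9 did not pass an adjusted p of 0.05, and none fell. Over all genes tested, 16.4% were higher and 16.6% lower at that threshold. Without the adjustment, Spp1 and Runx1 were higher and Alpl was lower at p under 0.05, and DESeq2 called the same 3 genes at an adjusted p of 0.05. Of all 13386 genes tested, 3016 were higher and 3084 lower at that unadjusted p, and 2605 and 2496 in DESeq2. With the thresholds of the study (adjusted p under 0.01, more than 2-fold, and a mean above 1 in FPKM, the fragment number scaled to transcript length and depth), Spp1 passed, against 1.5% of all genes higher and 2.08% lower. Sp7 and Acan could not pass, because their mean FPKM in the authors' table was under 1 in both genotypes.

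Libraries of the 2 genotypes did not overlap for Spp1 and Runx1, which were higher in all 3 KO libraries, and for Sp7, Alpl and Sox9, which were lower in all 3. Of all genes tested, 26.6% lay wholly higher and 28.2% wholly lower. KO replicate 3 held the lowest value of the 6 libraries for 7 of the 10 genes and the highest for Spp1 and Runx1, against 34.1% and 33.1% of all genes tested. Without KO replicate 3, 3 genes (Spp1, Runx1 and Runx3) were higher and 2 (Alpl and Sox9) lower at an adjusted p under 0.05, against 23.9% and 24.2% of the 13529 genes then tested. The median log2 fold change of the 10 genes was -0.12 with all libraries and 0.16 without KO replicate 3, beside -0.00032 and -0.0068 over all genes.

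**Figure D1:**
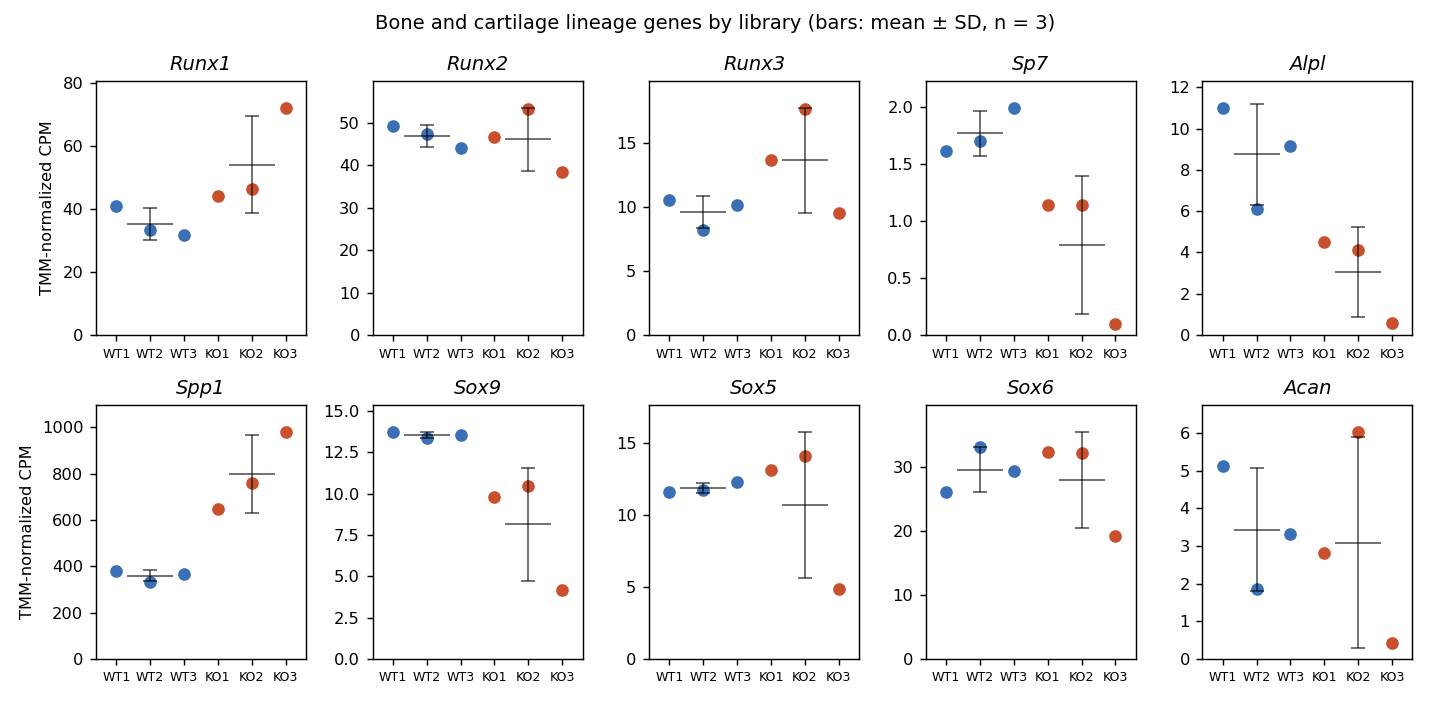
TMM-normalized CPM of each gene (vertical axes, each from 0) in the 3 WT libraries (blue) and the 3 KO libraries (orange), with bars for the mean ± SD (n = 3). Spp1 and Runx1 lie higher in every KO library, Sp7, Alpl and Sox9 lie lower in every KO library, and KO3 holds the lowest point in 7 panels.

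Among the RUNX genes, Runx1 (ENSMUSG00000022952, GRCm38 chromosome 16, 92601466 to 92826149, minus strand) held 41.1, 33.2 and 31.6 CPM in WT replicates 1 to 3 and 44.2, 46.2 and 72.0 in KO replicates 1 to 3. All KO values were above all WT values, and KO replicate 3 was far above the others. The mean was 35.3 ± 5.07 in WT and 54.1 ± 15.5 in KO cells (SD, n = 3 each). The log2 fold change was 0.62 (SE 0.209, adjusted p = 0.0611), which did not pass. Without KO replicate 3 the difference was smaller and passed, at 0.36 (SE 0.104, adjusted p = 0.0165). It also passed without KO replicate 1 (adjusted p = 0.0485) and in DESeq2 (0.0193), and over 12 alternatives its adjusted p ranged from 0.0165 to 0.187.

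Runx2 (ENSMUSG00000039153, chromosome 17, 44495987 to 44814797, minus strand) held 49.3, 47.4 and 44.0 CPM in WT and 46.6, 53.1 and 38.5 in KO replicates. The KO libraries lay on both sides of the WT libraries. Its log2 fold change was -0.025 (SE 0.126, 95% confidence interval -0.32 to 0.27, adjusted p = 0.889), the smallest in size among the 10 genes, and the sign turned without KO replicate 3 (0.090). The interval thus leaves room for a small change in either direction.

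Runx3 (ENSMUSG00000070691, chromosome 4, 135120652 to 135177990, plus strand) held 10.5, 8.16 and 10.2 CPM in WT and 13.7, 17.7 and 9.53 in KO replicates. KO replicates 1 and 2 were above every WT library, and KO replicate 3 lay among them. The log2 fold change was 0.50 (SE 0.235, adjusted p = 0.141), and without KO replicate 3 it was 0.71 (SE 0.148, adjusted p = 0.00299). KO replicate 3 thus held the highest Runx1 of all libraries and a Runx3 within the WT range.

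The levels of the family were set side by side per kilobase of the deposited gene length (FPKM from counts). In WT cells Runx2 was the highest at 7.25 ± 0.409, followed by Runx1 at 4.80 ± 0.689 and Runx3 at 2.47 ± 0.325 (SD, n = 3), and the ranges of these 3 genes did not overlap. In KO cells the means of Runx1 and Runx2 were 7.36 ± 2.11 and 7.13 ± 1.14, with overlapping ranges, and Runx3 was lower at 3.51 ± 1.05. The ratio of Runx1 to Runx2 within a library was 0.733, 0.617 and 0.631 in WT and 0.834, 0.764 and 1.64 in KO replicates. The ratio of Runx3 to Runx2 was 0.355, 0.287 and 0.384 in WT and 0.489, 0.553 and 0.412 in KO replicates. In both ratios every KO library was above every WT library, KO replicate 3 included. These ratios were chosen by the genes' roles after their values had been seen, as were those given further on, and are a description.

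The osteoblast factor gene Sp7 (ENSMUSG00000060284, chromosome 15, 102356606 to 102367182, minus strand) was low. Its counts were 34, 36 and 42 in WT and 24, 24 and 2 in KO replicates, or 1.62, 1.71 and 1.99 CPM against 1.15, 1.14 and 0.0953. Every KO library was below every WT library, and KO replicate 3 lay under the floor of 3 counts. The log2 fold change was -1.15 (SE 0.670, adjusted p = 0.220) and, without KO replicate 3, -0.63 (SE 0.312, adjusted p = 0.122), so it passed in neither fit. At this depth a change of Sp7 was not resolved, with a 95% confidence interval from -2.75 to 0.44 on the log2 scale.

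Alpl (ENSMUSG00000028766, chromosome 4, 137741733 to 137796384, minus strand), whose enzyme frees phosphate for mineral, held 10.98, 6.12 and 9.16 CPM in WT and 4.49, 4.13 and 0.572 in KO replicates. All KO values were below all WT values, and KO replicate 3, with 12 counts, was lowest by far. The mean was 8.75 ± 2.45 in WT and 3.06 ± 2.17 in KO cells (SD, n = 3). The log2 fold change was -1.51 (SE 0.631, adjusted p = 0.107), the most negative of the 10 genes. Without KO replicate 3, Alpl fell by 1.02 on the log2 scale (SE 0.239, adjusted p = 0.00560), which then also met the thresholds of the study. DESeq2 on all libraries gave an adjusted p of 0.0417. Over 12 alternatives the adjusted p ranged from 0.00560 to 0.256.

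Spp1 (ENSMUSG00000029304, chromosome 5, 104435118 to 104441050, plus strand), which encodes the secreted mineral-binding phosphoprotein osteopontin, held 379.9, 332.9 and 366.3 CPM in WT and 648.7, 761.6 and 980.2 in KO replicates. Every KO library was well above the highest WT library. The mean rose from 359.7 ± 24.2 to 796.8 ± 168.6 CPM (SD, n = 3), a ratio of 2.21, and the log2 fold change was 1.15 (SE 0.156, adjusted p = 0.00502). Without KO replicate 3 it was 0.97 (SE 0.0770, adjusted p = 7.27e-06), just under the fold change the study asked for. Leaving out WT replicate 1, 2 or 3 or KO replicate 2 put the adjusted p at 0.0272, 0.0346, 0.0365 and 0.0158, past 0.05 but not 0.01. Without KO replicate 1 it was 0.00939. GENCODE M21 places an exon of Gm42793 on the same strand over Spp1; that gene has no row in the count table.

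The osteoblast genes lay on different sides of Runx2. Relative to Runx2 in the same library, Sp7 and Alpl were lower and Spp1 higher in every KO library. The ratio of Alpl to Runx2, per length, was 0.566, 0.328 and 0.528 in WT and 0.244, 0.197 and 0.0377 in KO replicates, and that of Spp1 to Runx2 was 31.9, 29.0 and 34.4 in WT and 57.5, 59.2 and 105.2 in KO replicates. With the RUNX ratios, all 5 ratios to Runx2 had groups that did not overlap, 3 higher and 2 lower. Of all genes tested, 19.2% were wholly higher and 20.7% wholly lower relative to Runx2. Runx1, Spp1, Sp7 and Alpl did not overlap by themselves, and Runx2 differed little, so the count of ratios is not a separate result.

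**Figure D2:**
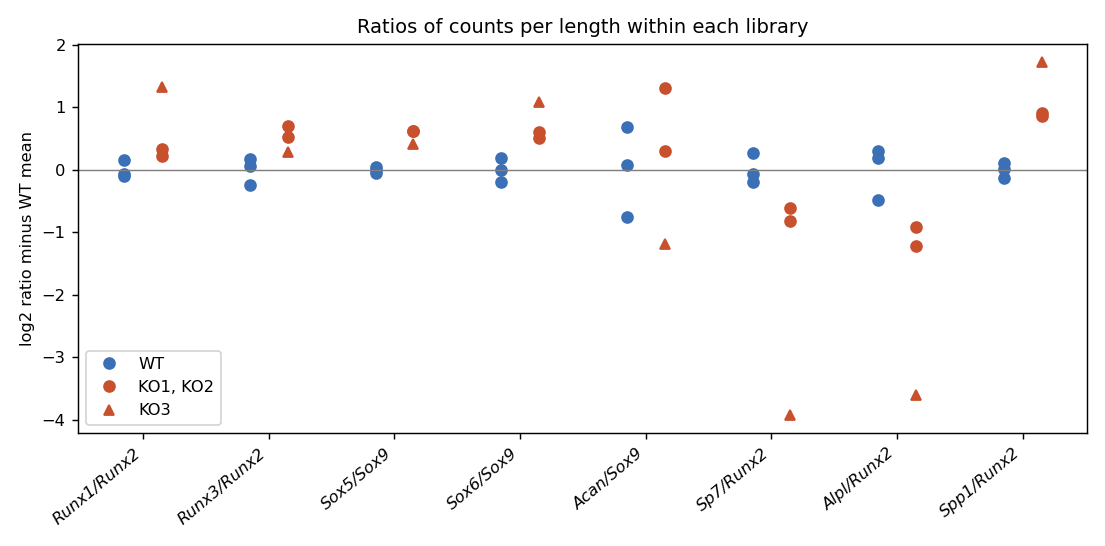
Log2 ratio of 2 genes' counts per length within each library, minus the mean of the 3 WT libraries (blue circles WT, orange circles KO1 and KO2, orange triangles KO3). Of the 8 ratios, 7 have KO points wholly on one side of the WT points, and that of Acan to Sox9 overlaps.

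KO replicate 3 also differed in transcripts of another cell type. The 11 macrophage markers summed to 70.1, 120.4 and 102.9 CPM in WT, 100.5 and 70.5 in KO replicates 1 and 2 and 283.9 in KO replicate 3. In that library 8 of the 10 tested markers were highest of all libraries, against 33.1% of all genes tested. Lyz2, a lysozyme of myeloid cells, held 158.6 CPM there against 25.5 to 58.0 elsewhere. With all libraries none of the 10 markers passed an adjusted p of 0.05 between genotypes in edgeR. At an unadjusted p under 0.05 there were 2, and DESeq2 called 1. Without KO replicate 3, 1 marker was lower at an adjusted p under 0.05 and none was higher. In KO replicates 1 and 2 the summed markers were within the WT range and Spp1 was above that of WT. Itgam, an integrin gene of myeloid cells, held 3.20 CPM in KO replicate 1 against at most 1.95 in WT. The part of these transcripts in the values of Spp1 and Runx1 was not tested. Of the osteoclast markers, Ocstamp, Oscar and Atp6v0d2 were at or near 0, with at most 0.333 CPM in any library, whereas Ctsk held 26.6 to 51.2 and Nfatc1 17.9 to 24.9 CPM. Mmp9, Tnfrsf11a and Acp5 were highest in KO replicate 3, at 4.57, 10.8 and 2.14 CPM. The 8 markers in the table summed to 68.3 to 77.2 CPM in WT and 56.2 to 75.0 in KO libraries. Of 5 osteoclast markers tested none passed in edgeR with all libraries, with 1 at an unadjusted p under 0.05 and 1 in DESeq2. Without KO replicate 3, 1 was higher and 1 lower at an adjusted p under 0.05.

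**Figure D3:**
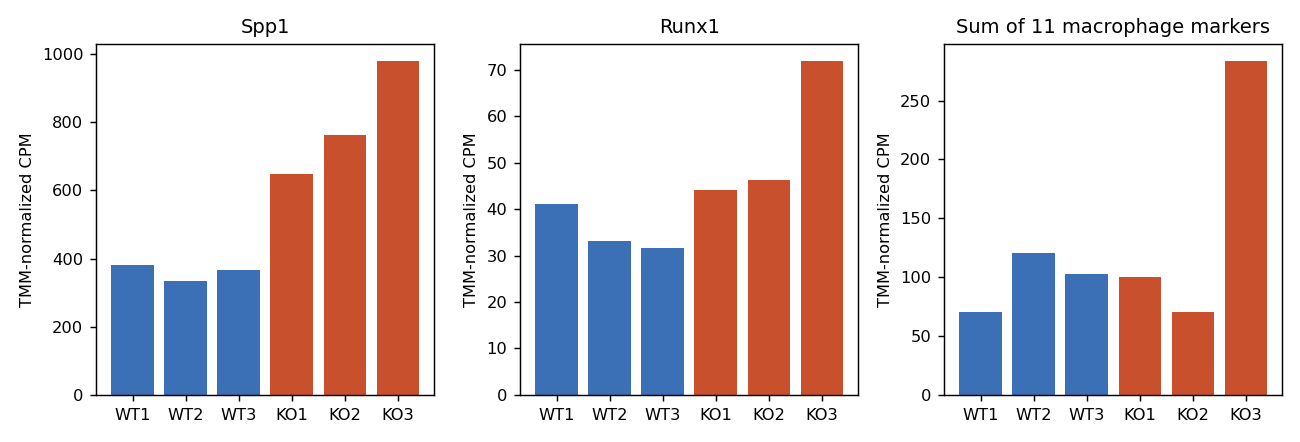
TMM-normalized CPM by library for Spp1, Runx1 and the sum of 11 macrophage markers (bars, 1 library each, axes from 0). Spp1 is higher in each KO library, whereas the macrophage sum is higher only in KO3, at 283.9 CPM against 70.1 to 120.4 in the other 5.

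Of the cartilage factor genes, Sox9 (ENSMUSG00000000567, chromosome 11, 112782224 to 112787760, plus strand) held 13.7, 13.4 and 13.6 CPM in WT and 9.78, 10.4 and 4.19 in KO replicates. The WT libraries were nearly equal, and every KO library was below them. The mean was 13.6 ± 0.177 in WT and 8.14 ± 3.44 in KO cells (SD, n = 3), a log2 fold change of -0.74 (SE 0.316, adjusted p = 0.116). Without KO replicate 3 it fell by 0.42 (SE 0.107, adjusted p = 0.00865), and this was its only alternative that passed 0.05.

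Sox5 (ENSMUSG00000041540, chromosome 6, 143828425 to 144781977, minus strand) held 11.6, 11.7 and 12.2 CPM in WT and 13.1, 14.1 and 4.86 in KO replicates. KO replicates 1 and 2 were slightly above all WT libraries and KO replicate 3 was far below them. The log2 fold change was -0.15 (SE 0.362, adjusted p = 0.770) and 0.20 without KO replicate 3 (SE 0.105, adjusted p = 0.144). Sox6 (ENSMUSG00000051910, chromosome 7, 115470872 to 116038796, minus strand) held 26.1, 33.2 and 29.5 CPM in WT and 32.5, 32.2 and 19.3 in KO replicates. KO replicates 1 and 2 lay inside the WT range and KO replicate 3 below it. Its log2 fold change was -0.080 (SE 0.211, adjusted p = 0.789) and 0.13 without KO replicate 3 (SE 0.0998, adjusted p = 0.309). The sign of both genes turned without that library, that of Sox6 also without WT replicate 2 (0.0066), and neither gene passed in any fit.

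The 3 SOX genes were not at equal levels. Per length, Sox9 and Sox6 were alike in WT cells, at 3.28 ± 0.0428 and 3.25 ± 0.386 FPKM from counts with overlapping ranges, and Sox5 was lower at 1.62 ± 0.0465 (SD, n = 3). In KO cells they were at 1.97 ± 0.831, 3.07 ± 0.828 and 1.46 ± 0.690. The ratio of Sox5 to Sox9 was 0.476, 0.494 and 0.509 in WT and 0.756, 0.759 and 0.654 in KO replicates, and that of Sox6 to Sox9 was 0.864, 1.13 and 0.986 in WT and 1.51, 1.40 and 2.09 in KO replicates. The KO libraries were higher in both, but 67.3% of all genes tested were wholly higher and 3.99% wholly lower relative to Sox9, so the shift was not particular to its partners. The deposited FPKM of Sox6 was 9.61 in WT replicate 3 against 3.73 and 4.03 in the other WT libraries, a spread that the counts of 550, 699 and 621 do not show. In that library the deposited value was 2.97 times the value from counts, against 1.06 to 1.51 times in the other 5, and the median over all genes there was 1.26.

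Acan (ENSMUSG00000030607, chromosome 7, 79053483 to 79115099, plus strand), the cartilage proteoglycan gene, was low and uneven. Its counts were 108, 39 and 70 in WT and 59, 127 and 9 in KO replicates, or 5.13, 1.85 and 3.32 CPM against 2.82, 6.03 and 0.429. Both genotypes spread widely and overlapped. The log2 fold change was -0.15 (SE 0.797, 95% confidence interval -2.05 to 1.74, adjusted p = 0.895) and 0.37 without KO replicate 3. A change of several fold in either direction would not have been detectable for Acan at this spread.

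**Figure D4:**
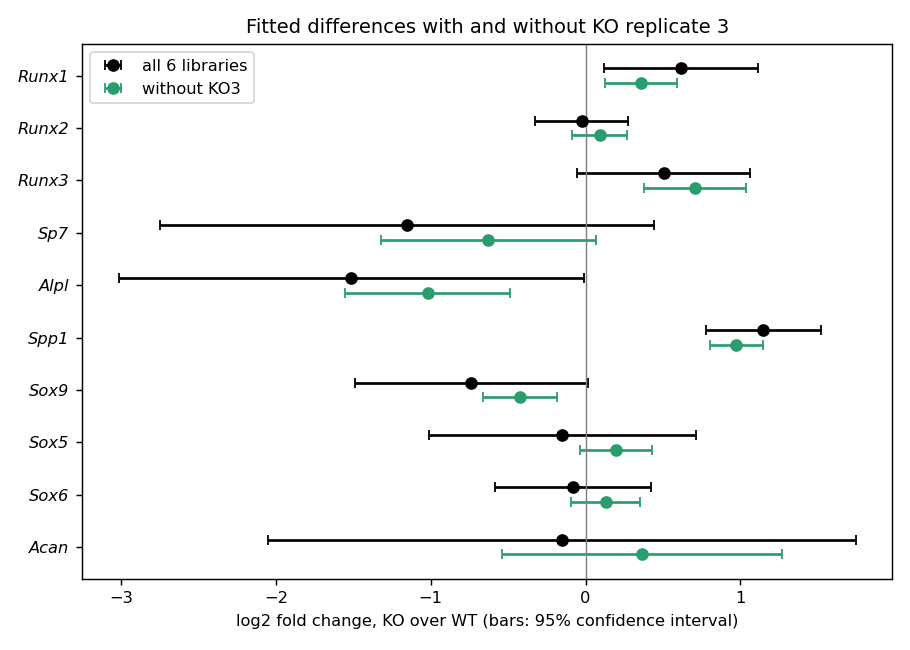
Log2 fold change of KO over WT (horizontal axis) for the 10 genes with all 6 libraries (black) and without KO replicate 3 (green), with 95% confidence intervals. Without that library every interval is narrower, and the point estimates of Runx2, Sox5, Sox6 and Acan change sign.

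Other cartilage matrix genes, taken from a list, were read beside these. Of 23 listed, 21 were in the table and 15 were tested. At an adjusted p under 0.05, 4 rose (Prg4, Col11a2, Cilp2 and Col9a3) and 1, Cilp, fell, and 10 did not pass. At an unadjusted p under 0.05 and in DESeq2, 4 were higher and 3 lower (Cilp, Cnmd and Comp). Cnmd and Comp had log2 fold changes of -2.28 and -1.81 (adjusted p = 0.0594 and 0.0723). Prg4, which encodes the joint lubricant lubricin, rose from a mean of 6.59 ± 1.89 CPM to one of 35.8 ± 22.0 (SD, n = 3), with a log2 fold change of 2.44 (SE 0.470, adjusted p = 0.0119). Col11a2, a chain of cartilage collagen XI, had a log2 fold change of 1.002 (SE 0.161, adjusted p = 0.0074). Cilp, a matrix protein of the cartilage intermediate layer, had one of -3.51 (SE 0.595, adjusted p = 0.00840), with 0.382 CPM or less in each KO library. Col11a1 and Col2a1, the fibrillar collagens with the highest level in the list, held 1228, 1436 and 408.3 CPM and 82.4, 115.1 and 28.8 CPM in KO replicates, against 633.1 to 701.8 and 62.8 to 73.9 in WT.

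KO replicates 1 and 2 were thus above and KO replicate 3 below the WT libraries for both collagens. KO replicate 3 was lowest in 9 of the 15 tested genes, against 34.1% of all genes tested. The median log2 fold change of the list was 0.19 with all libraries and 0.72 without KO replicate 3. In the latter fit 9 of the tested genes were higher and 4 lower at an adjusted p under 0.05, against 23.9% and 24.2% of all genes. The summed level of the list was 756.5 to 832.3 CPM in WT, 1446 and 1645 in KO replicates 1 and 2 and 487.5 in KO replicate 3. Most of this sum was Col11a1 in every library, so it describes that gene more than the list. The median log2 CPM of the 15 tested genes relative to the WT mean was 0.69, 0.75 and -1.47 in KO replicates 1 to 3. Sox9 was lower in all 3 KO libraries, while the sum and this median were higher in 2 of them.

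**Figure D5:**
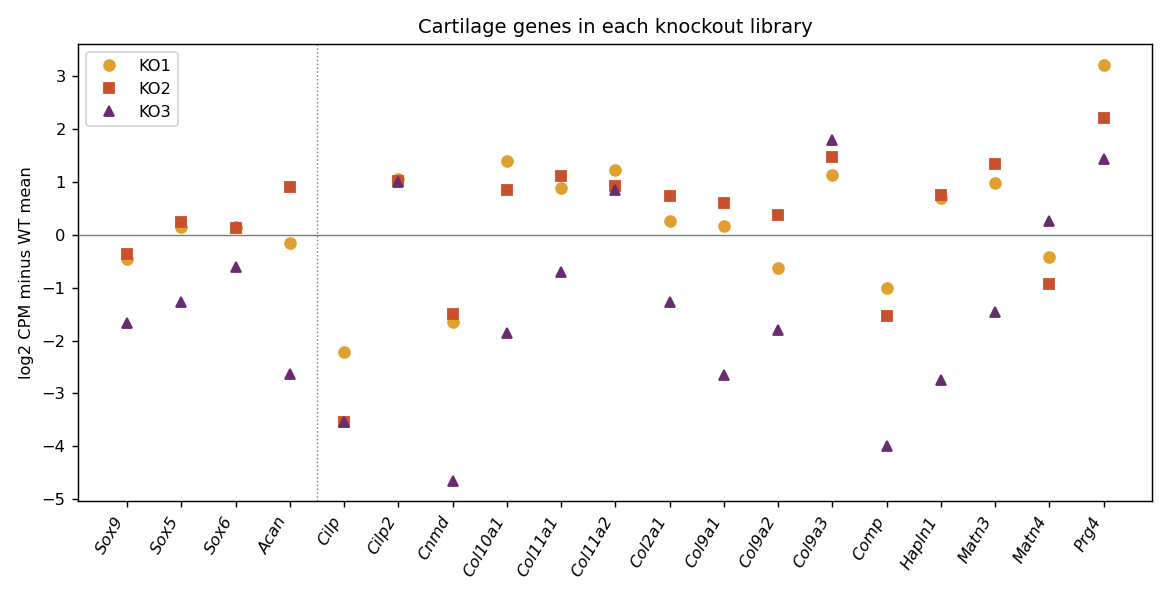
Log2 CPM minus the WT mean (vertical axis) in each KO library for Sox9, Sox5, Sox6 and Acan (left of the dotted line) and for the 15 tested cartilage matrix genes (right). KO3 (triangles) lies under KO1 and KO2 for all 4 genes on the left and for most on the right.

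Among other chondrocyte regulators, 10 of 11 were tested and Pthlh alone passed in edgeR with all libraries. At an unadjusted p under 0.05 and in DESeq2, 1 was higher and 1 lower, and without KO replicate 3, 1 and 2. The lower gene was Mef2c (log2 fold change -0.79, adjusted p = 0.0951). Without KO replicate 3 it was joined by Fgfr3 (-0.95, adjusted p = 5.95e-05). Pthlh, which encodes the parathyroid hormone-related signal that delays chondrocyte maturation, rose from 1.54 ± 0.271 to 6.19 ± 0.221 CPM (SD, n = 3), with a log2 fold change of 2.01 (SE 0.207, adjusted p = 0.00319), and its KO libraries were close together, KO replicate 3 included. Arid5b and Wwp2, the genes with the highest level in this list, had log2 fold changes of 0.033 and -0.0077. Of the genes for chondroitin sulphate assembly and aggrecan cleavage, 13 of 14 were tested, 4 rose and 2 fell. Chst11, a chondroitin sulphotransferase, rose from 24.2 ± 3.68 to 56.7 ± 7.98 CPM, by 1.23 on the log2 scale (SE 0.149, adjusted p = 0.00387). Chpf, Csgalnact1 and Slc35d1 rose by 0.55, 0.62 and 0.60 on the log2 scale. Xylt1, which starts the chain, fell by 0.42 on the log2 scale (adjusted p = 0.0198) and Adamts5, an aggrecanase gene, by 0.40 (adjusted p = 0.0251). At an unadjusted p under 0.05 and in DESeq2, 4 were higher and 3 lower. The lower ones then included Chst3, another sulphotransferase gene, with a log2 fold change of -1.18 (adjusted p = 0.0720). Without KO replicate 3 that of Chst3 was -0.78 (adjusted p = 0.000216). The list's median was 0.012, and without KO replicate 3 it was -0.031 with 5 genes higher and 4 lower.

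Of the osteoblast matrix and mineral genes, 19 of 22 were tested, 5 rose and 1 fell, with a median log2 fold change of 0.28. At an unadjusted p under 0.05, 5 were higher and 4 lower, and in DESeq2 5 and 2. The libraries of the genotypes did not overlap for 6 genes that were higher and 6 that were lower, against 26.6% and 28.2% of all genes tested. Slc20a1, a phosphate importer gene, rose from 49.1 ± 3.01 to 88.5 ± 5.55 CPM (SD, n = 3), with a log2 fold change of 0.85 (SE 0.0834, adjusted p = 0.00284). Ank, which exports pyrophosphate, rose by 0.59 (SE 0.0715, adjusted p = 0.00387). Sparc (osteonectin) rose from 2560 ± 75.2 to 4158 ± 527.2 CPM, by 0.70 on the log2 scale (adjusted p = 0.00782).

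Bglap, the osteocalcin gene, rose from 0.253 ± 0.0549 to 1.41 ± 0.275 CPM (log2 fold change 2.45, SE 0.355, adjusted p = 0.00589), a low level in both genotypes. Bglap is one of a cluster of almost identical genes, so the assignment of its reads is uncertain. The fifth was Tnfsf11 (RANKL, log2 fold change 1.94), and the gene that fell was Sost (sclerostin), both named after their values were seen. Sost held 5.32, 9.68 and 7.92 CPM in WT and 0.811, 0.285 and 0 in KO replicates. Its log2 fold change was -4.37 (SE 0.774, adjusted p = 0.00946), which met the thresholds of the study. Col1a1 and Col1a2, the most abundant of the list, had log2 fold changes of 0.018 and -0.41 with adjusted p-values of 0.954 and 0.226. KO replicate 3 was lowest for 11 of the 19, against 34.1% of all genes tested. Without it 7 were higher and 3 lower, against 23.9% and 24.2% of all genes then tested.

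Of 9 other osteoblast transcription factor genes tested, Zfp521 fell, from 133.4 ± 9.72 to 84.2 ± 16.8 CPM (log2 fold change -0.66, SE 0.152, adjusted p = 0.0193), and none rose in edgeR, at an unadjusted p under 0.05 or in DESeq2. Lower genes numbered 2 at an unadjusted p under 0.05 (Zfp521 and Msx1), 1 in DESeq2 and 2 without KO replicate 3. Msx1, a homeobox gene, had a log2 fold change of -2.09 (adjusted p = 0.0643), and without KO replicate 3 of -1.55 (adjusted p = 6.08e-05). Prrx1 and Atf4, the highest in level, had log2 fold changes of 0.047 and -0.12. Of 13 tested RUNX partners and corepressors, Smurf2 rose, and Tle3, Sin3a and Tle2 fell. Smurf2, a ubiquitin ligase for RUNX2 and SMAD proteins, had a log2 fold change of 0.46 (SE 0.0698, adjusted p = 0.00657). The Groucho family corepressor gene Tle3 had one of -0.56 (SE 0.115, adjusted p = 0.0140), Tle2 one of -0.68 (adjusted p = 0.0405) and Sin3a one of -0.36 (adjusted p = 0.0358). The shared partner gene Cbfb had one of -0.099 (SE 0.0855, adjusted p = 0.396). Wwtr1 and Aes, high in level, had 0.22 and -0.20 and did not pass with all libraries in edgeR. Both passed without KO replicate 3 (adjusted p = 0.0206 and 0.0012), and Wwtr1 also in DESeq2 (0.0187). Of the 13, 4 were higher and 3 lower at an unadjusted p under 0.05, 3 and 3 in DESeq2, and 5 and 4 without KO replicate 3.

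The fibroblast markers gave the setting of these values. Of 11 tested, 2 fell: Thy1 from 180.2 ± 19.9 to 83.7 ± 5.19 CPM (SD, n = 3; log2 fold change -1.11, adjusted p = 0.00251) and Pdgfra, a receptor gene of mesenchymal progenitors, from 198.5 ± 21.2 to 85.3 ± 31.1 CPM (-1.22, adjusted p = 0.0185). With all libraries none rose in edgeR, whereas 2 were higher at an unadjusted p under 0.05 and 2 in DESeq2. These were Vim and Fn1, with log2 fold changes of 0.29 and 0.56. Without KO replicate 3, 2 (Fn1 and Vim) were higher and 3 lower at an adjusted p under 0.05. Lum was among the lower ones, at -0.71, and at -1.13 with all libraries (adjusted p = 0.119). Over all genes then tested, 23.9% were higher and 24.2% lower. KO replicate 3 was lowest in 7 of the 11, against 34.1% of all genes tested. Of other blood cell, endothelial, and Schwann cell and neural crest markers, 3, 2 and 3 were tested. None passed with all libraries in edgeR or in DESeq2. At an unadjusted p under 0.05 there were 2, both Schwann cell and neural crest markers. Without KO replicate 3, 2 Schwann cell and neural crest markers were higher at an adjusted p under 0.05, and no blood cell or endothelial marker passed. Spi1 and Vav1, of blood cells, were highest in KO replicate 3, at 6.10 and 4.86 CPM. Kdr was under 1.8 CPM in every library, Tek held 30.8 to 64.5 CPM, and Sox10 had a log2 fold change of 0.87.

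For the 4 members of mean CPM 1 or more with the largest log2 fold change, the genes of most like pattern were found by the root mean square difference of their log2 CPM relative to the WT mean over the 6 libraries, among 12605 other genes. Among the nearest to Spp1 were Timp2 (0.0448) and Acta2 (0.0650). Nearest to Sox9 were Chsy3 (0.0583), Alms1 (0.0642) and Mef2c (0.0766). Sp7 was followed most closely by Clec11a (0.146), Scn3a (0.161) and Mest (0.181). Alpl had less close neighbours, Adamts17 (0.164), Capn6 (0.278) and Troap (0.286). The distances are a description, and in all 4 patterns KO replicate 3 lay farthest from the WT mean.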

How the data were processed

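Poly(A) RNA of 3 WT and 3 KO samples was read. The authors aligned stranded paired-end reads with HISAT2 2.1.0 to GRCm38/mm10 and deposited raw counts per gene, with gene lengths; the counting program and its use of strand are not given in the sources used here. The authors also deposited FPKM values from Cufflinks 2.1.1 for 12633 genes, and in 2 columns their own log2 fold changes and adjusted p-values, which were not used.

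In R 4.3.3, edgeR 4.0.16 was run on the counts with TMM factors, filterByExpr (minimum count 10) and the quasi-likelihood test without covariates, with Benjamini-Hochberg adjustment over 13386 genes. SE is the absolute log2 fold change over the square root of F. Log2 CPM used a pseudocount of 2 counts. Alternatives were RLE factors, library size only, DESeq2 1.42.0, other count filters, no FPKM limit, a replicate block and each library left out. The members and lists were chosen with earlier results of these data known. Genes named are Rnf20, the members, of each list up to 4 genes with the lowest p past 0.05 and the 2 of highest FPKM, and the 3 nearest genes of 4 members. Some genes that this rule names are not reported here. Col9a3, Csgalnact1, Adamts5, Tnfsf11, Sost, Cbfb, Msx1, Itgam and the osteoclast genes other than Ctsk and Nfatc1 were named after their values were seen. So were Cnmd, Comp, Fgfr3, Chst3, Fn1 and Lum. The test was first tried on simulated counts. Counts cannot show PCR duplicates, so the floor covers counting error only. Positions and overlaps come from GENCODE M21, and promoter windows from RefSeq. Exons of Gm26626, Runx2os1 and Sox5os1 lie opposite those of Runx1, Runx2 and Sox5; none has a row in the count table.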

Additional observations from a re-analysis of the deposited data

How the results depend on the processing

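Of the 10 members, Spp1 and Sp7 kept direction and side of an adjusted p of 0.05 in all 12 alternatives; no member lost a call there. Over the fits leaving a library out, log2 fold changes ranged from -0.14 to 0.090 for Runx2, -0.40 to 0.20 for Sox5, -0.20 to 0.13 for Sox6 and -1.08 to 0.37 for Acan. Signs turned without WT replicate 1 for Runx2 (0.0090) and Acan (0.25), without WT replicate 2 for Sox6 (0.0066), and without KO replicate 3 for Runx2 (0.090), Sox5 (0.20), Sox6 (0.13) and Acan (0.37). The cause was not tested. Members higher at an adjusted p under 0.05 numbered 1 to 3 and lower 0 to 2 in these fits, and 2 and 1 in DESeq2. By the study's thresholds 0 to 1 member was higher and 0 to 1 lower in those fits, and 0 higher with the replicate block, where Spp1 had an adjusted p of 0.0237. Over all genes, the study's thresholds gave 201 higher and 279 lower, DESeq2 417 and 565, the replicate block 0 and 0, and the fits without a library 0 to 295 and 1 to 490. At an adjusted p under 0.05 the fits without a library gave 694 to 3230 higher and 702 to 3280 lower, and the block 1385 higher. Deviations of same-numbered libraries from the mean of their genotype correlated at -0.0656, 0.0366 and 0.0109, so no pairing by number was seen. With 3 libraries per genotype and KO replicate 3 far apart, these values cannot tell whether same-numbered samples share a source. No scaling moved the median of all genes by over 0.1. Without the limit on FPKM the member counts were the same.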
